A study of Mus musculus with 16 samples.

Results

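Interferon response genes are transcripts that rise when a cell senses interferon. The 9 described here are Stat2, Irf7, Ifit1, Ifit3, Isg15, Oas3, Rtp4, Gbp3 and Usp18, taken from 22180 genes that had a named row on a mouse Affymetrix array. Each member had a single row with 1 gene symbol, and all 9 passed the filter on low values, which left 13555 genes. The members were picked by name, with earlier results on these arrays known.

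The arrays measured liver of 8 mice aged 18 months, in 4 groups of 4 arrays: tumours and then non-tumour liver of MYC/REG3A mice (labelled MYC+/+, REG3A+/+), and tumours and non-tumour liver of MYC mice (labelled MYC+/+, REG3A-/-). All mice had a C57BL/6J background and carried a c-MYC transgene that woodchuck hepatitis virus sequences drive in the liver, so no group was free of MYC. REG3A is a secreted C-type lectin, and the labels do not say which promoter drives its transgene. Tumour and non-tumour liver came from the same animal in all 8 cases. Values are log2 RMA levels, in which 1 unit is a factor of 2 and arrays have been made alike in distribution. Levels of different genes are not comparable on this scale.

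Type I interferons bind a receptor of Ifnar1 and Ifnar2, whose kinases Jak1 and Tyk2 phosphorylate Stat2. With Irf9, Stat2 is part of a complex that binds interferon-stimulated response elements in promoters. Interferon gamma acts through Jak1 and Jak2 and more strongly induces the guanylate-binding proteins and antigen processing genes. In the liver, hepatocytes, macrophages and endothelium can all respond.

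Tissue identity and the spread between arrays bear on everything that follows. A mean over 7 hepatocyte markers was 12.11 to 12.48 on the log2 scale in MYC/REG3A tumours, against 12.42 to 12.51 in their non-tumour livers. In MYC mice it was 12.21 to 12.34 in tumours, against 12.30 to 12.44 in non-tumour livers. Of these 7 markers 1 was called lower in the tumours of each genotype by the test given below. The tumours of MYC/REG3A mice 2 and 4 stood closer to their non-tumour liver than the others. The SD of the tumour change over all tested genes was 0.336 and 0.429 in these mice, 0.679 and 0.657 in MYC/REG3A mice 1 and 3, and 0.624 to 0.729 in the MYC mice. Results are therefore also given without those mice where that matters. The array medians lay between 4.9 and 4.97, and a level near them may be close to background.

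The promoters of these genes are shown because interferon acts on many of its targets through such elements. The 250 bases before the annotated start (RefSeq, build GRCm38.p6) were available for 7 members, all but Rtp4 and Usp18. They were searched on both strands for the core of the response element, GAAANNGAAA, where overlapping matches were counted separately. It was present in 6 of the 7 members, and in 3.46% of 27025 genes with such a window (2.98% of 32851 windows). The gamma-activated site TTCNNNGAA was present in 0 of the 7, against 8.13% of the genes. Below, 5 windows are printed 5′ to 3′ on the strand of the gene, with matches to the response element in capitals. Stat2, Irf7 and Gbp3 are members that fell in MYC tumours, and Ifit1 and Ifit3 are a pair from 1 cluster that differed in how they varied.
Stat2, chr10:128270248-128270497, + strand: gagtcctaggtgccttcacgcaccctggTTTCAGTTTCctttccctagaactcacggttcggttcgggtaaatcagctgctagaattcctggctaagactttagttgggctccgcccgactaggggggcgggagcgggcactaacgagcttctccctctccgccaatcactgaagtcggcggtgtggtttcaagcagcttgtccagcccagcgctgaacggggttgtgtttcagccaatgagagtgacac
Irf7, chr7:141266425-141266674, - strand: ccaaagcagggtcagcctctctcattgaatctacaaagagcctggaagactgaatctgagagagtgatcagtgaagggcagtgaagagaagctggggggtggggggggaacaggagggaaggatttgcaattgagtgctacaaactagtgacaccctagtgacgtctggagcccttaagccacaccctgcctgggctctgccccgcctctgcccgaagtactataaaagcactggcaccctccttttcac
Gbp3, chr3:142559794-142560043, + strand: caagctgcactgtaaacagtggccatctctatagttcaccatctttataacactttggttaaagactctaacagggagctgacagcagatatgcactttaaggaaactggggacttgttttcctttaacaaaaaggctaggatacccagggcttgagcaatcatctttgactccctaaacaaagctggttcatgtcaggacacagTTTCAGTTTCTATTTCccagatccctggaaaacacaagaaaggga
Ifit1, chr19:34640639-34640888, + strand: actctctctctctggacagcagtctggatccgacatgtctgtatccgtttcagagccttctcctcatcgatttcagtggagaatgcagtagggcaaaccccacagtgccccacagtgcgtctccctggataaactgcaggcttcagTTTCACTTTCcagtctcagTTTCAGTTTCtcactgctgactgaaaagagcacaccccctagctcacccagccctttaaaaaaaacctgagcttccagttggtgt
Ifit3, chr19:34583279-34583528, + strand: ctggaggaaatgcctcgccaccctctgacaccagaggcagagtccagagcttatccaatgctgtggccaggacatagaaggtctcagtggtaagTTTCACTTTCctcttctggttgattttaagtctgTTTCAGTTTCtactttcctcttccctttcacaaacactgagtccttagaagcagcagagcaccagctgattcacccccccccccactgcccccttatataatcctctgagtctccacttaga

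Stat2 had 1 match, 222 bases before the start. Gbp3 had 2 overlapping matches close to its start, beginning 45 and 39 bases before it, and a second annotated start of Gbp3 had 0. Ifit1 and Ifit3 had 2 matches each. Isg15 had 3 overlapping matches between 78 and 57 bases before its start, and Oas3 had 1, 75 bases before it. Irf7 had 0 matches in this window. A match is a description of the letters and does not show binding.

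The comparison of tumour with paired non-tumour liver asks how the interferon response of the tumour differs from that of the liver around it. In MYC/REG3A tumours 1 of the 9 members passed the test, Stat2, which was lower. In MYC tumours 5 passed: Gbp3, Rtp4, Irf7 and Stat2 were lower and Usp18, the enzyme that restrains interferon signalling, was higher. The test was limma's moderated test with the mouse as a block and a Benjamini-Hochberg adjusted p below 0.05 over 13555 genes. By this rule 12.5% of all tested genes were called in MYC/REG3A mice (4.88% lower and 7.58% higher) and 33.2% in MYC mice (15.8% lower and 17.4% higher). At an unadjusted p below 0.05, 4 members passed in MYC/REG3A mice and 6 in MYC mice, as 30.1% and 44.4% of all tested genes did. The median change of the members was -0.26 in MYC/REG3A mice and -0.63 in MYC mice, beside -0.02 and -0.03 over all tested genes. The plot of changes with their intervals sets the genotypes side by side.

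**Figure D1:**
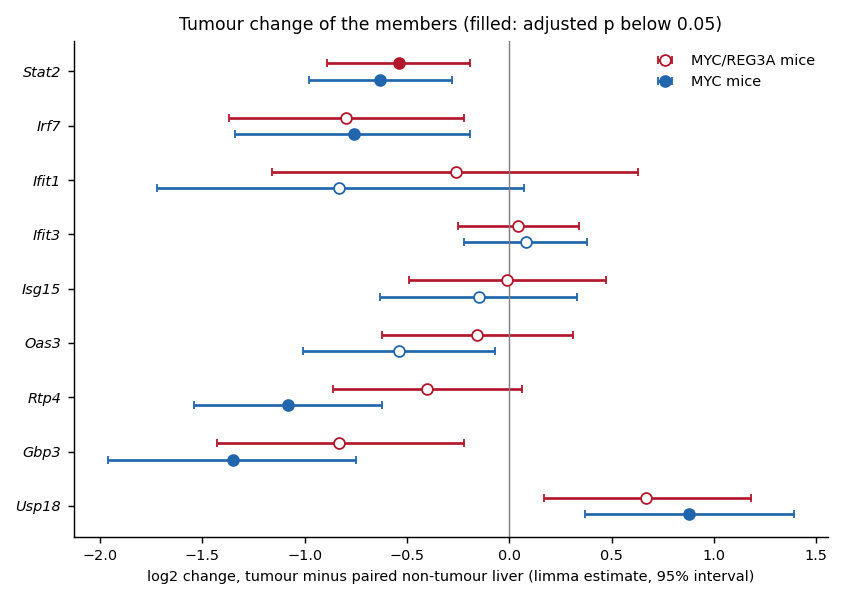
Log2 change of each member, tumour minus paired non-tumour liver, as estimated by limma with 95% intervals (n = 4 mice per genotype), MYC/REG3A above MYC for each gene. Filled points passed an adjusted p below 0.05: Stat2 in MYC/REG3A mice, and Stat2, Irf7, Rtp4, Gbp3 and Usp18 in MYC mice.

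Of the signalling factors, Stat2 carries the transcription activation function of the type I complex. It had log2 levels of 8.19, 8.64, 8.64 and 8.84 in the tumours of MYC/REG3A mice 1 to 4, against 9.17, 8.70, 9.41 and 9.21 in their non-tumour livers. In MYC mice 1 to 4 it had 8.77, 8.57, 8.54 and 8.64 in tumours, against 9.03, 9.39, 9.28 and 9.34 in non-tumour livers. Every MYC tumour lay below every MYC non-tumour liver, while in MYC/REG3A mice the groups overlapped through mouse 2. Stat2 was lower in the tumour of 8 of 8 mice. It fell by 0.54 in MYC/REG3A mice (SE 0.156, limma adjusted p = 0.0496) and by 0.63 in MYC mice (SE 0.156, limma adjusted p = 0.0133). The first call lay at the threshold and held under 6 of 17 alternatives. Without MYC/REG3A mouse 1, 3 or 4 its adjusted p was 0.209, 0.193 and 0.0854, and without MYC mouse 2, 3 or 4, which enter through the shared estimate of the spread, it was 0.0538, 0.0634 and 0.0688. The second was lost without MYC mouse 4 (adjusted p = 0.052).

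Irf7 is the transcription factor that amplifies type I interferon production and is itself interferon-induced. Its log2 levels were 6.79, 7.96, 8.45 and 7.84 in the tumours of MYC/REG3A mice 1 to 4, against 8.43, 8.12, 9.06 and 8.62 in their non-tumour livers. In MYC mice they were 7.97, 8.28, 7.80 and 7.93 in tumours, against 9.05, 8.28, 8.34 and 9.36 in non-tumour livers. All 8 tumours were lower than their own non-tumour liver, but in MYC mouse 2 the gap was only 0.0011, and the MYC groups were separated by no more than that. The differences were -0.80 in MYC/REG3A mice (SE 0.257, limma adjusted p = 0.0685) and -0.76 in MYC mice (SE 0.257, limma adjusted p = 0.0459). The MYC/REG3A difference was -1.01 and called without MYC/REG3A mouse 2 (adjusted p = 0.0497), called without MYC mouse 2 (adjusted p = 0.0484), and -0.52 without MYC/REG3A mouse 1 (adjusted p = 0.277). The MYC call held under 7 of 17 alternatives. It was lost without the mouse block (adjusted p = 0.0745) and without MYC mouse 1, 3 or 4 (adjusted p = 0.15, 0.0772 and 0.194). It was also lost without MYC/REG3A mouse 3 or 4 (adjusted p = 0.0601 and 0.0635).

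**Figure D2:**
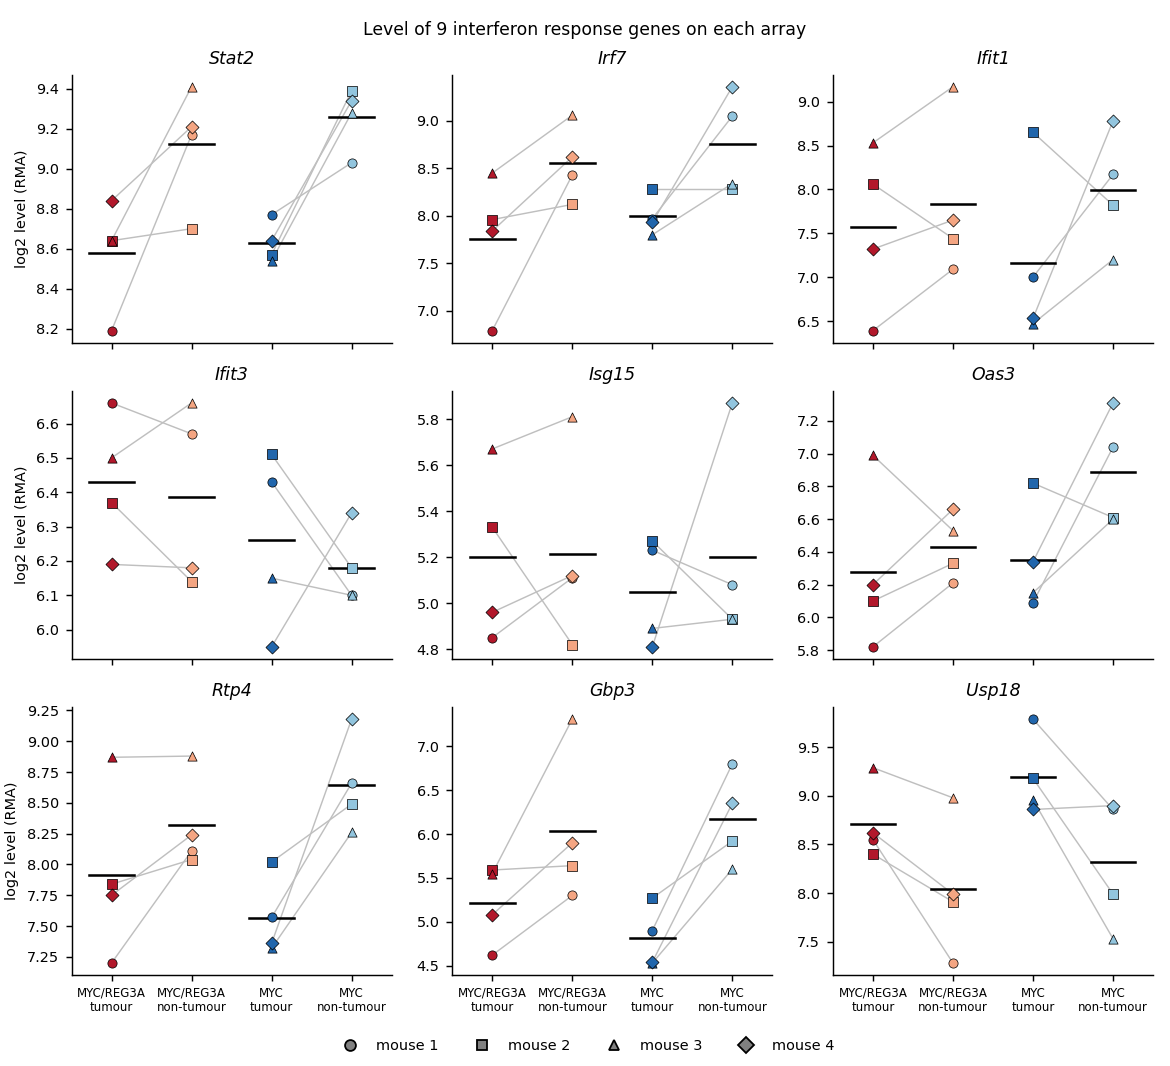
Log2 RMA level of each member (y axis) in the 4 groups (x axis), with 1 point per array, marker shape for the mouse number within its genotype, grey lines joining the tumour and non-tumour liver of a mouse, and black bars for group means (n = 4). MYC tumours lie below all MYC non-tumour livers for Stat2, Rtp4 and Gbp3 and, by 0.0011, for Irf7, and Usp18 slopes the other way in 7 of 8 mice.

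Among the effectors that are members, Gbp3 and Rtp4 fell most in MYC mice. Gbp3 is a guanylate-binding GTPase of cell-autonomous defence. It had log2 levels of 4.62, 5.59, 5.55 and 5.08 in MYC/REG3A tumours 1 to 4, against 5.30, 5.64, 7.31 and 5.90 in non-tumour livers. In MYC mice it had 4.90, 5.27, 4.53 and 4.54 in tumours, against 6.80, 5.92, 5.6 and 6.35 in non-tumour livers. It was lower in 8 of 8 tumours, and in MYC mice the groups did not overlap. It fell by 1.35 in MYC mice, which is 2.56-fold (SE 0.27, limma adjusted p = 0.005), and it stayed called under all 17 alternatives, with changes of -1.59 to -1.17. The MYC/REG3A difference was -0.83 (SE 0.27, limma adjusted p = 0.071), which became -1.08 and called without mouse 2 of that genotype (adjusted p = 0.0397) and -0.52 without mouse 3 (adjusted p = 0.286). Gbp3 lay below the array median on 4 of the 16 arrays, so background may limit the fall that can be seen. Its cluster holds close paralogs, and signal shared with them cannot be told apart.

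Rtp4 is an interferon-induced chaperone of G protein-coupled receptors. Its log2 levels were 7.20, 7.84, 8.87 and 7.75 in MYC/REG3A tumours 1 to 4, against 8.11, 8.04, 8.88 and 8.24 in non-tumour livers. In MYC mice they were 7.57, 8.02, 7.32 and 7.36 in tumours, against 8.66, 8.49, 8.26 and 9.18 in non-tumour livers. Rtp4 was lower in all 8 tumours, by as little as 0.01 in MYC/REG3A mouse 3 and by as much as 1.81 in MYC mouse 4. It fell 2.11-fold in MYC mice (log2 change -1.08, SE 0.205, limma adjusted p = 0.00424) and stayed called there under all 17 alternatives. The MYC/REG3A difference was -0.40 (SE 0.205, limma adjusted p = 0.221). Stat2, Irf7, Rtp4 and Gbp3 were thus the 4 members lower in all 8 mice, a pattern that 12.6% of all tested genes showed. Those 4 were also the members lower in all 4 mice of either genotype, as 20.9% of all tested genes were in MYC/REG3A mice and 23.6% in MYC mice. In MYC mice all 4 had every tumour below every non-tumour liver, as 14.1% of all tested genes did. Of the members 0 did so in MYC/REG3A mice, against 8.29% of all tested genes.

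Ifit1, Oas3 and Isg15 are classical type I targets that did not pass. Ifit1 binds viral RNA that lacks a host-type cap. It had log2 levels of 6.39, 8.06, 8.53 and 7.32 in MYC/REG3A tumours 1 to 4, against 7.09, 7.44, 9.17 and 7.65 in non-tumour livers. In MYC mice it had 7, 8.65, 6.47 and 6.53 in tumours, against 8.17, 7.82, 7.20 and 8.78 in non-tumour livers. The groups overlapped widely, and mouse 2 of each genotype had the higher level in its tumour. The differences were -0.26 in MYC/REG3A mice and -0.83 in MYC mice (SE 0.4 in both, limma adjusted p = 0.708 and 0.138). Without MYC mouse 2, whose tumour had the highest level of its group, the MYC difference was -1.38 and was called (adjusted p = 0.0124), and without MYC mouse 4 it was -0.36 (adjusted p = 0.527).

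Oas3 makes the 2′-5′ oligoadenylates that activate RNase L. Its group means were 6.28 ± 0.5 in MYC/REG3A tumours and 6.43 ± 0.203 in their non-tumour livers, and 6.35 ± 0.328 in MYC tumours and 6.89 ± 0.348 in their non-tumour livers (SD, n = 4 each). Its differences were -0.16 and -0.54 (SE 0.209, limma adjusted p = 0.664 and 0.0731), and without MYC mouse 2 the MYC difference of -0.79 was called (adjusted p = 0.0157). Isg15 encodes the ubiquitin-like protein that is conjugated to other proteins in the response. Its means were 5.20 ± 0.373 in MYC/REG3A tumours and 5.22 ± 0.419 in non-tumour livers, and 5.05 ± 0.237 in MYC tumours and 5.20 ± 0.451 in non-tumour livers (SD, n = 4 each). It lay below the array median on 6 of 16 arrays, and its differences of -0.01 and -0.15 were smaller than the spread within any of these groups (SE 0.215, limma adjusted p = 0.977 and 0.629). Ifit3, a partner of the IFIT complexes, ranged from 5.95 to 6.66 over all 16 arrays. Its differences of 0.04 and 0.08 did not pass (SE 0.132, limma adjusted p = 0.861 and 0.675), with 95% intervals of -0.25 to 0.34 in MYC/REG3A mice and -0.22 to 0.38 in MYC mice. Ifit3b, its close paralog, lay below the array median on all 16 arrays and was not tested, and signal shared between them cannot be told apart.

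Usp18 moved opposite to the 4 members that fell in MYC tumours. It removes Isg15 from proteins and blocks the type I receptor, and it is itself induced by interferon. Its log2 levels were 8.55, 8.40, 9.29 and 8.62 in MYC/REG3A tumours 1 to 4, against 7.28, 7.91, 8.98 and 7.99 in non-tumour livers. In MYC mice they were 9.79, 9.18, 8.96 and 8.86 in tumours, against 8.86, 7.99, 7.53 and 8.90 in non-tumour livers. The tumour was higher in 7 of 8 mice, with MYC mouse 4 lower by 0.04. It was the 1 member higher in all 4 MYC/REG3A tumours, as 19.5% of all tested genes were. In all 4 MYC tumours 0 members were higher, against 23.4% of all tested genes, and in all 8 tumours 0, against 14%. Usp18 rose 1.84-fold in MYC mice (log2 change 0.88, SE 0.228, limma adjusted p = 0.016). The call was lost without MYC mouse 1, 2 or 3 (adjusted p = 0.0515, 0.0562 and 0.0691) and without the mouse block (adjusted p = 0.0717). The MYC/REG3A difference was 0.67 (SE 0.228, limma adjusted p = 0.0788). When the MYC/REG3A arrays were fitted alone it was called, at an adjusted p of 0.0475, as it was without MYC mouse 4 (adjusted p = 0.0361).

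The level of Usp18 was also set against that of the other members. Usp18 minus the mean log2 level of the other 8 members was 1.42 to 2.23 in MYC/REG3A tumours, against 0.28 to 1.12 in their non-tumour livers. In MYC mice it was 2 to 3.04 in tumours, against 0.49 to 1.36 in non-tumour livers. In MYC mouse 4 Usp18 itself did not rise, at 8.86 in tumour and 8.90 in non-tumour liver. There the mean of the other 8 was 6.51 in tumour, against 7.81 in non-tumour liver. Within each genotype the 2 tissues did not overlap on Usp18 minus this mean. The size of this difference on 1 array has no meaning of its own, since levels of different genes are not comparable. It is read only between tissues. It was formed after Usp18 was seen to rise and other members to fall, so the separation of the tissues is no further support. It is given without a test and without the share of all genes that would separate in this way.

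**Figure D3:**
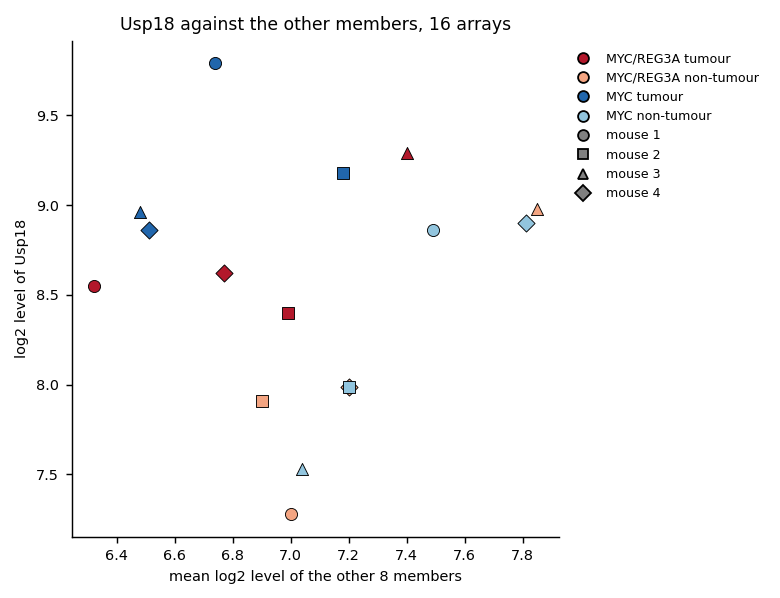
Log2 level of Usp18 (y axis) against the mean log2 level of the other 8 members (x axis) on 16 arrays, coloured by group, with marker shape for the mouse number. The groups overlap on each axis alone, and Usp18 minus the mean of the others is 1.42 to 3.04 in tumours, against 0.28 to 1.36 in non-tumour liver.

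The members also varied between mice of the same group, and mostly together. Expressed as deviations from the 4 group means, all 36 pairs of members correlated above 0 over the 16 arrays, with a median Pearson r of 0.66 and a range of 0.11 to 0.90. The arrays share mice and a normalisation, so these values only describe them. Rtp4, Ifit1 and Isg15 followed the mean of the other 8 members most closely, at r = 0.93, 0.91 and 0.90, and Irf7, Gbp3, Oas3 and Usp18 at 0.88, 0.84, 0.75 and 0.74. Stat2 and Ifit3 followed it least, at 0.40 and 0.38. Usp18 followed it at 0.53 over the 8 tumours and at 0.91 over the 8 non-tumour livers.

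The same few arrays stood at the top. The tumour of MYC/REG3A mouse 3 held the highest level of its group for 6 of 9 members, and its non-tumour liver for 8 of 9. The tumour of MYC mouse 2 was highest for 7 members, and the non-tumour liver of MYC mouse 4 for 7. At the other end, the tumour of MYC/REG3A mouse 1 was lowest for 7 members. The mean change over the 9 members was -0.47, 0.13, -0.37 and -0.31 in MYC/REG3A mice 1 to 4 and -0.56, 0.11, -0.33 and -1.16 in MYC mice 1 to 4, so mouse 2 of either genotype had a mean above 0. In MYC mouse 4 all 9 members were lower in the tumour.

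**Figure D4:**
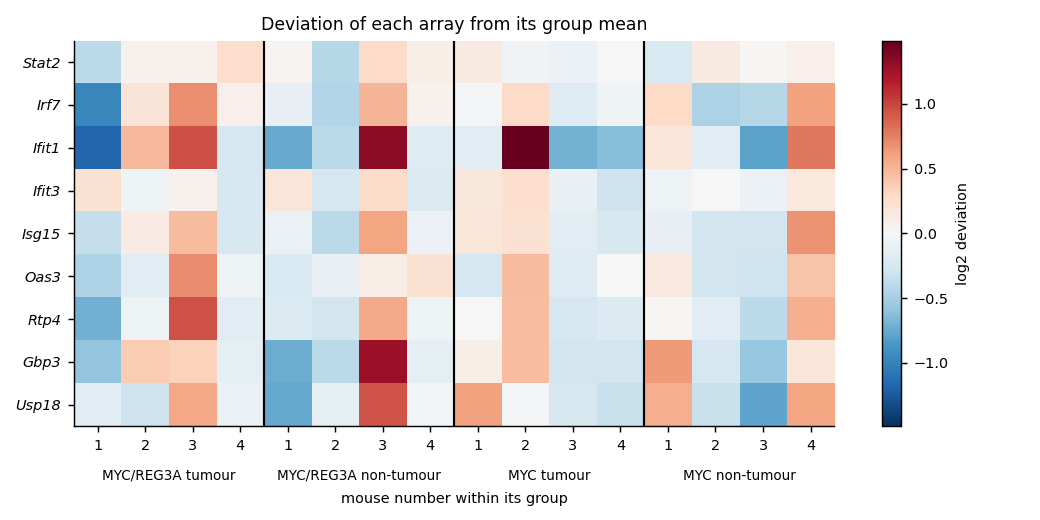
Deviation of each array's log2 level from the mean of its group, for 9 members (rows) and 16 arrays (columns, by group and mouse number), red above and blue below the mean. Some columns share 1 colour, as in the tumour and non-tumour liver of MYC/REG3A mouse 3, where all 9 members lie above the group mean.

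Outside the members, 10 tested genes were most like the mean of the members by the same deviations over 16 arrays. They were Gm12250 (r = 0.94), Oasl2, Iigp1 and Ddx60 (each 0.92), Gm20559 (0.90), Dhx58 and Herc6 (both 0.89), and Ifi27, Ifi203-ps and Fam71f2 (each 0.88). Of these, 6 were on the interferon lists described next. The tumour changes of these 10 ranged from -0.66 to 0.24 in MYC/REG3A mice and from -1.01 to 0.19 in MYC mice. Of them 3 fell in MYC tumours, none of which passed in MYC/REG3A tumours: the helicase gene Ddx60 by 0.88 (limma adjusted p = 0.0154), Gm20559 by 1.01 (adjusted p = 0.00562) and Ifi203-ps by 0.75 (adjusted p = 0.00429). Of all tested genes 15.8% were called lower in MYC and 4.88% in MYC/REG3A tumours. These calls do not show that the genotypes differ.

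The wider pathway was described by lists of 155 distinct genes by role, of which 146 were not members and 108 of those were tested. In MYC/REG3A tumours 6 of the 108 passed as lower and 0 as higher, with a median change of -0.22. In MYC tumours 31 passed as lower and 2 as higher, with a median of -0.32. As shares this is 5.56% lower in MYC/REG3A and 28.7% lower in MYC tumours, beside 4.88% and 15.8% of all tested genes.

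Most of the interferon genes themselves could not be judged. Of 21 listed, 19 had a row and 7 were tested, and of these 7 limma called 0 in either genotype. At an unadjusted p below 0.05 there was 1 in each, Ifna4, named after its value was seen, with differences of -0.25 in MYC/REG3A mice and -0.29 in MYC mice (SE 0.104). Ifnb1 and Ifng lay below the array median on all 16 arrays. Among receptors and kinases, 2 of 8 were lower in MYC/REG3A tumours, Jak1 by 0.49 and Jak2 by 0.44 (SE 0.0992 and 0.123, limma adjusted p = 0.0164 and 0.043). In MYC tumours 1 was, Jak2 by 0.70 (SE 0.123, adjusted p = 0.00307). As shares this is 25% in MYC/REG3A and 12.5% in MYC tumours, beside 4.88% and 15.8% of all tested genes called lower. The receptor chains Ifnar1 and Ifnar2 differed by 0.24 and 0.27 in MYC/REG3A mice and by 0.09 and 0.16 in MYC mice, with no call.

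Of 7 tested transcription factors all had negative differences in both genotypes. Their median was -0.45 in MYC/REG3A mice and -0.53 in MYC mice, beside -0.02 and -0.03 over all tested genes. In MYC/REG3A tumours 2 passed, Stat2 and Irf1, which fell by 0.45 (SE 0.114, limma adjusted p = 0.0342). In MYC tumours 5 passed. These were Stat2, Irf7, Irf9, the DNA-binding part of the type I complex, which fell by 1.03 (SE 0.205, adjusted p = 0.00499), Irf1, which fell by 0.51 (SE 0.114), and Irf2, which fell by 0.33 (SE 0.1). Irf9 differed in MYC/REG3A mice by -0.69 with an adjusted p of 0.054. The calls make up 28.6% of the 7 in MYC/REG3A and 71.4% in MYC tumours, beside 4.88% and 15.8% of all tested genes called lower.

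Of 15 tested genes of nucleic acid sensing, 1 fell in MYC/REG3A tumours, the DNA sensor Ifi204 by 1 log2 unit (SE 0.244, limma adjusted p = 0.0297). In MYC tumours 4 fell. As shares this is 6.67% in MYC/REG3A and 26.7% in MYC tumours, beside 4.88% and 15.8% of all tested genes called lower. The RNA sensor Tlr3 fell by 0.50, the adaptor Myd88 by 0.54, Ifi204 by 0.90 and Sting1, the adaptor of cytosolic DNA sensing, by 0.61 (SE 0.106, 0.126, 0.244 and 0.205).

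Of 42 tested type I effectors 1 fell in MYC/REG3A tumours, the ubiquitin ligase Trim21, by 0.60 (SE 0.147, limma adjusted p = 0.0305). In MYC tumours 12 fell, Rtp4 among them, and 1 rose. The falls make up 2.38% in MYC/REG3A and 28.6% in MYC tumours, beside 4.88% and 15.8% of all tested genes. The MYC/REG3A share is thus not above that of all tested genes. Ifitm3, which blocks virus entry, fell by 0.49 and Znfx1 by 0.48 (SE 0.109 and 0.108), and Ifit2 fell by 0.51 (SE 0.171). The riser was Pnpt1, the mitochondrial RNA exonuclease, by 0.61 (SE 0.123, adjusted p = 0.00518). Oas2 and Oasl2 differed by -0.42 and -0.24 in MYC/REG3A tumours and by -0.82 and -0.66 in MYC tumours, with no call. Mx1, which is defective in this strain, lay below the array median on all 16 arrays.

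Of 18 listed guanylate-binding proteins and immunity-related GTPases 11 were tested, and all 11 had negative differences in both genotypes. Their median was -0.54 in MYC/REG3A mice and -0.56 in MYC mice, beside -0.02 and -0.03 over all tested genes. The list holds close paralogs that may share signal, so these signs are not separate observations. In MYC/REG3A tumours 1 passed, Gbp7, which fell by 1.02 (SE 0.258, limma adjusted p = 0.033). In MYC tumours 4 passed, Gbp3 and 3 others. Gbp7 fell by 1.64 (SE 0.258, adjusted p = 0.00201), Gbp2b fell by 0.74 and Irgm2 fell by 0.56 (SE 0.213 and 0.166). As shares this is 9.09% in MYC/REG3A and 36.4% in MYC tumours, beside 4.88% and 15.8% of all tested genes called lower. Of 13 genes induced by interferon gamma 0 passed with limma in MYC/REG3A tumours (2 at an unadjusted p below 0.05) and 6 fell in MYC tumours. The share called lower was 0% in MYC/REG3A and 46.2% in MYC tumours, beside 4.88% and 15.8% of all tested genes. The median change of these 13 genes was -0.22 in both genotypes, with 11 of 13 negative in each. The test of the difference between genotypes called 0 of these 13. The immunoproteasome subunits Psmb8 and Psmb9 differed by -0.17 and -0.07 in MYC/REG3A tumours, and fell by 0.91 and 0.63 in MYC tumours. The peptide transporter genes Tap1 and Tap2 differed by -0.29 and -0.36 in MYC/REG3A tumours, and fell by 0.85 and 0.91 in MYC tumours. The chemokine Cxcl10 differed by 0.18 in MYC/REG3A mice and 0.15 in MYC mice (SE 0.345), with no call.

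**Figure D5:**
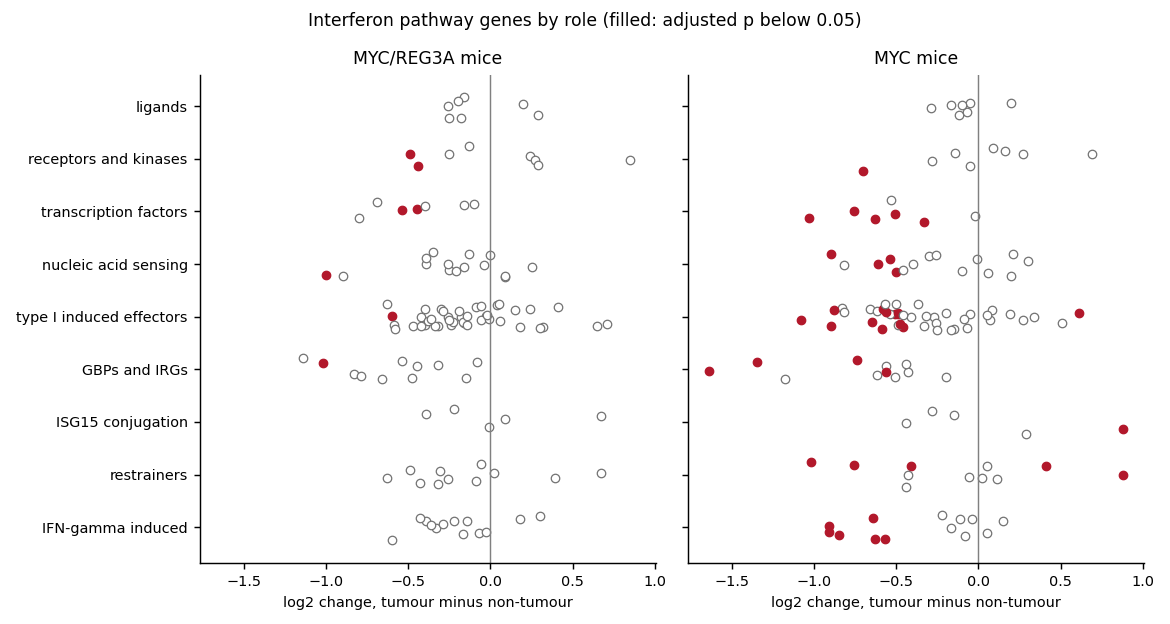
Log2 change, tumour minus non-tumour liver (x axis), of each tested gene of 9 role lists (rows, jittered vertically), in MYC/REG3A mice on the left and MYC mice on the right, with filled points for an adjusted p below 0.05. GBPs are guanylate-binding proteins and IRGs immunity-related GTPases, whose 11 points lie below 0 in both panels, and the filled points above 0 are Pnpt1, Ptpn2 and Usp18 (which stands in 2 lists), all in MYC mice.

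Usp18 was read against the genes nearest to it in role. Of 5 genes of Isg15 conjugation only Usp18 passed, in MYC tumours. That is 20% called higher, beside 17.4% of all tested genes. The E1 enzyme Uba7, the E2 enzyme Ube2l6 and the ligase Herc6 differed by -0.39, 0.09 and -0.22 in MYC/REG3A tumours and by -0.28, 0.29 and -0.44 in MYC tumours, with no call. Of 11 tested genes that restrain interferon signalling, 0 passed with limma in MYC/REG3A tumours (6 at an unadjusted p below 0.05), and 3 fell and 2 rose in MYC tumours. Socs3, an inhibitor of JAK kinases, fell by 1.02, Trim24 by 0.76 and Pias1 by 0.41 (SE 0.21, 0.157 and 0.102). The other riser beside Usp18 was the phosphatase gene Ptpn2, by 0.41 (SE 0.119, limma adjusted p = 0.0254), named after its value was seen. The restrainers did not share 1 direction. In MYC tumours 27.3% of the 11 were called lower and 18.2% higher, beside 15.8% and 17.4% of all tested genes.

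Markers of several other cell types were also lower in tumours. Of all tested genes 4.88% were called lower in MYC/REG3A tumours and 15.8% in MYC tumours. Of 12 macrophage and Kupffer cell markers 9 fell in MYC/REG3A tumours and 9 in MYC tumours. Their mean log2 level was 6.82 to 7.98 in MYC/REG3A tumours, against 8.25 to 8.85 in non-tumour livers, and 7.15 to 8.10 in MYC tumours, against 8 to 9.39 in non-tumour livers. Of 8 sinusoidal endothelial markers 5 fell in MYC/REG3A and 7 in MYC tumours, and of 5 tested B and plasma cell markers 3 fell in MYC/REG3A and 4 in MYC tumours. Of 3 tested neutrophil markers 0 passed in MYC/REG3A tumours (2 at an unadjusted p below 0.05) and 3 fell in MYC tumours. Of T cell markers 4 of 8 were tested and limma called 0 in either genotype (0 in MYC/REG3A and 1 in MYC tumours at an unadjusted p below 0.05), with mean levels of 5.04 to 5.65 in MYC/REG3A tumours, against 5.19 to 5.72 in non-tumour livers, and of 4.83 to 5.87 in MYC tumours, against 5.01 to 6.69 in non-tumour livers. Of 3 tested plasmacytoid dendritic cell markers 0 passed in either genotype, also at an unadjusted p below 0.05. These were Siglech, Tcf4 and Bst2, which is also on the list of type I effectors. Of that cell's markers Siglech lay below the array median on 9 of 16 arrays, and Ccr9 lay below the array median on all 16 arrays. Of 2 tested natural killer cell markers 0 passed in either genotype, also at an unadjusted p below 0.05. Of 3 tested dendritic cell markers 0 passed in MYC/REG3A tumours, also at an unadjusted p below 0.05. In MYC tumours 1 of the 3 fell (2 at an unadjusted p below 0.05), and 1 had a positive difference in each genotype. The part of these cells in the falls of Stat2, Irf7, Rtp4 and Gbp3 was not tested, and in bulk tissue fewer cells of a type and less RNA per cell cannot be told apart.

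The comparison between genotypes asks whether REG3A goes with a different interferon state. For the change from non-tumour liver to tumour, the test of the difference between genotypes called 0 of 9 members and 0.00738% of all tested genes. At an unadjusted p below 0.05 it passed 1 member and 5.58% of all tested genes. That member was Rtp4, whose tumour change was 0.68 less negative in MYC/REG3A than in MYC mice (SE 0.29, 95% interval 0.03 to 1.32, limma adjusted p = 0.873). The calls made in MYC mice alone are thus not shown to differ from MYC/REG3A mice. The intervals of the other 8 members all held 0, and the widest was that of Ifit1, from -0.70 to 1.83.

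Between the tumours of MYC/REG3A and MYC mice, limma called 0 of 9 members and 0.0221% of all tested genes (0.00738% higher and 0.0148% lower), and 0 members had an unadjusted p below 0.05, against 10.6% of all tested genes. Usp18 had the lowest p, with means of 8.71 ± 0.393 in MYC/REG3A tumours and 9.20 ± 0.417 in MYC tumours (SD, n = 4 each) and a difference of -0.48 (SE 0.358, 95% interval -1.25 to 0.28, limma adjusted p = 0.649). Between the non-tumour livers 0 members and 0% of all tested genes were called, and 0 members had an unadjusted p below 0.05, against 5.45% of all tested genes. Oas3 had the lowest p there, with means of 6.43 ± 0.203 in MYC/REG3A and 6.89 ± 0.348 in MYC non-tumour livers (SD, n = 4 each) and a difference of -0.46 (SE 0.234, 95% interval -0.95 to 0.04, limma adjusted p = 0.949). Of the 108 other pathway genes 0 were called in any genotype comparison. In non-tumour liver 84 were lower and 24 higher in MYC/REG3A mice (median -0.12), and in tumours 61 and 47 (median -0.03). Their tumour changes were less negative or more positive in MYC/REG3A mice for 73, and the reverse for 35 (median 0.08). Such genes may vary together, so these signs are not separate observations.

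The order of the group means differed by member. For Stat2, Irf7, Ifit1, Oas3, Rtp4 and Gbp3 both non-tumour groups stood above both tumour groups, and for Usp18 both tumour groups stood above both non-tumour groups. The means of the 2 tumour groups lay within 1 SD of each other for Stat2, at 8.58 ± 0.275 in MYC/REG3A and 8.63 ± 0.099 in MYC tumours, and so did those of the non-tumour groups, at 9.12 ± 0.3 and 9.26 ± 0.161 (SD, n = 4 each). For Gbp3 the means were 5.21 ± 0.457 in MYC/REG3A tumours and 4.81 ± 0.351 in MYC tumours, and 6.04 ± 0.881 in MYC/REG3A and 6.17 ± 0.522 in MYC non-tumour livers. For Ifit3 and Isg15 the 4 means spanned 6.18 to 6.43 and 5.05 to 5.22, and no neighbours in that order differed beyond their spread.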

How the data were processed

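Transcripts were measured with 1 array per sample in 16 liver samples. The deposited values are log2 expression made by the authors with RMA; the submitters' processing notes name Affymetrix Expression Console 1.4.1. The settings are not given in the sources used here, and the log base was taken from the size of the values. RMA equalises the arrays, so changes are relative to the other genes. Of 41345 rows 23521 had 1 gene symbol; where a gene had several, the row with the highest mean stood for it. A gene was tested when it exceeded the array median in at least 4 of 16 arrays.

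Tests used limma 3.58.1 in R 4.3.3 (lmFit, eBayes, 2-sided) over all 16 arrays, adjusted by Benjamini-Hochberg over 13555 genes, and were tested on simulated data. The mouse was a block in the tumour comparisons, because each animal gave 2 samples: deviations of paired arrays correlated at 0.0963 to 0.325. Genotype comparisons used group means. Named genes were the members, 10 pathway genes named in advance where they had a row, up to 4 called genes of lowest p per list and tumour comparison, and the 10 most alike. Members, lists and rules were chosen with earlier results of these data known. The 4 mice per genotype limit the precision.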

Additional observations from a re-analysis of the deposited data

Results flagged for a closer look

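Isg15 stood out in 2 cases by the distance of 1 mouse from the other 3 of its group, among 54 groups of 4 values examined, in which chance flags about 1 in 20. In MYC non-tumour liver its log2 level was 5.87 in mouse 4, against 4.93 to 5.08 in the others. In MYC/REG3A mice its tumour minus non-tumour difference was 0.50 in mouse 2, against -0.26 to -0.14 in the others.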

How the results depend on the processing

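The number of members called in MYC mice, 5, was 3 without the mouse block, and ranged from 3 to 6 when single mice were left out. Rtp4 and Gbp3 were called under all 17 alternatives, Stat2 under 16, Usp18 under 13 and Irf7 under 7. In MYC/REG3A mice the 1 call, Stat2, became 0 with no filter, with a variance trend, with arrays centred on their median and with array weights, and the count was 0 to 3 when single mice were left out. Where Stat2 lost its call it kept its direction, at -0.87 to -0.40 over all alternatives (adjusted p 0.0257 to 0.209). Without MYC/REG3A mice 2 and 4 Stat2 was -0.87 and called in MYC/REG3A mice. Gbp3 was then -1.22 and Irf7 -1.12, both larger falls than with all mice, with no call. Ifit3 was -0.036 and Oas3 0.031. Isg15 turned to 0.015 with centred arrays and 0.022 with array weights. Leaving out single mice moved Isg15 between -0.186 and 0.0688 and Ifit3 between -0.0182 and 0.113 in MYC/REG3A mice, and Isg15 between -0.315 and 0.154 and Ifit3 between -0.0022 and 0.236 in MYC mice. In the comparisons between genotypes 0 members were called under every alternative, with mouse as a random block or its number as a replicate block included. Over all genes, calls numbered 281, 273 and 944 of 1690 without MYC/REG3A mouse 1, 3 and 4, and 2975 of 4505 without MYC mouse 4. Between genotypes they numbered 114 in place of 3 in tumours without MYC/REG3A mouse 1, and 22 in place of 0 in non-tumour liver without MYC mouse 2. The cause was not tested for any of these shifts.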
